A study of Mus musculus with 6 samples.

Results

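The natural killer (NK) cell receptor genes examined here are Ncr1, Klrb1c, Klrd1, Klrk1, Klrc1, Klrc2, Klra4, Klra7, Klra8 and Klra9, chosen by name through their Ensembl gene identifiers. All 10 were in the files, which list 44678 genes, and all 10 were among the 13024 genes that passed the filter on low counts. The libraries came from untreated CD8a+ leukocytes of mouse spleen, with 3 wild-type (WT) mice, WT1 to WT3, and 3 knockout (KO) mice, KO1 to KO3. KO mice were made by deleting from the germline a segment that holds the precursors of miR-144 and miR-451, so every cell type lacked both, and both groups were of the C57BL/6J strain and 8 to 12 weeks old. The comparison asks whether receptor transcripts of this cytotoxic lineage differed in CD8a+ spleen cells when miR-144 and miR-451 were missing. CD8a is carried by CD8 T cells and by a class of dendritic cells, and mouse NK cells in general do not carry it. Which of these cells entered the libraries beyond the CD8a+ label is not given in the sources used here. The paper presents its transcriptome sequencing as part of work on dendritic cell function but does not name the sorted cells sequenced. Its methods describe magnetic sorting of dendritic cells, CD8 T cells and CD4 T cells.

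NK cells read the surface of other cells through paired activating and inhibitory receptors. Inhibitory receptors, which recognise MHC class I molecules, carry a tyrosine motif in their cytoplasmic tail that recruits phosphatases, while activating receptors lack it and signal through adaptor proteins such as DAP10 and DAP12. In mice the MHC class I receptors are the lectin-like Ly49 family, encoded by Klra genes, and the CD94/NKG2 heterodimers, encoded by Klrd1 with a Klrc gene. Several of these receptors are also made by activated and memory CD8 T cells, NKG2D (Klrk1) and CD94/NKG2A (Klrd1 with Klrc1) among them.

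The split between activating and inhibitory receptors can be read from the first bases of the coding sequences. The starts of the 4 Ly49 genes and of Klrc1 and Klrc2 are shown because later values compare these classes. Each line gives the first 75 coding bases in the GENCODE M21 annotation of GRCm38, 5′ to 3′. Capitals mark bases 22 to 24, counted from the A of the start codon, which hold the tyrosine codon of the motif in Klra7, Klra9 and Klrc1. In Klra4 and Klra8 the capitals mark the codon at the same place, and Klrc2 has no such motif among its first 70 codons and so no capitals.
Klra7: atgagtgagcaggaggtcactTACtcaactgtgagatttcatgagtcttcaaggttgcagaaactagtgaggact
Klra9: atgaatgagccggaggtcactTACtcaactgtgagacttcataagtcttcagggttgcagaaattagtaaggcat
Klra4: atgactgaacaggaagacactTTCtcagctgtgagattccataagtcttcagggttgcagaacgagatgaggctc
Klra8: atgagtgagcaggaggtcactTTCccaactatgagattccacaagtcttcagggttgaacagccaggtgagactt
Klrc1: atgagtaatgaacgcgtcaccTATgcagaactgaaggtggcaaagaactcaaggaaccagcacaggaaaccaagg
Klrc2: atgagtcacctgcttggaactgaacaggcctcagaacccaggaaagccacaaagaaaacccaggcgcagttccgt

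Against Klra7 (Ly49G), Klra4 (Ly49D) and Klra8 (Ly49H) both carried A23T, which turns the tyrosine codon into one for phenylalanine. Klra9 (Ly49I) kept the tyrosine codon and differed from Klra7 at 9 of the 75 bases, while Klra8 differed at 16 and Klra4 at 17. Over their whole coding sequences the order was different. Klra8, an activating gene, was 91.9% identical to the inhibitory Klra9, and the other 5 pairs of Ly49 members were 74.0 to 79.2% identical. Klrc1, which encodes the inhibitory NKG2A, and Klrc2, which encodes the activating NKG2C, were 81.1% identical.

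Such likeness bears on every count below, because short reads from near-identical copies have to be divided between genes. Of the 31-base words in the annotated transcripts of Klra9, 57.8% also occurred in another gene, Klra3 holding most of them, and for Klra8 the share was 55.0%, with Klra14-ps and Klra9 as the main partners. Klrc1 shared 53.1% of its words, nearly all with Klrc2. Klra7 shared 24.7%, Klrc2 21.6%, Klrb1c 21.2% and Klra4 17.5%. Ncr1 and Klrd1 shared 0.0% and Klrk1 0.0138%, so their counts are the least open to this. Klrb1c also overlaps Gm44511 on the same strand over 413 bases, 13.9% of its exon length. The values of the Klra and Klrc genes and of Klrb1c are therefore uncertain as to which copy gave the reads.

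In GRCm38, 9 members lie within 1.45 Mb of chromosome 6, the NK gene complex. From its start they are Klrb1c (chr6:128778485-128789215), Klrd1 (chr6:129591782-129598775), Klrk1 (chr6:129610323-129623864), Klrc2 (chr6:129647496-129660689) and Klrc1 (chr6:129666015-129678973), and the 4 Ly49 genes follow. Klra4 (chr6:130043731-130067271), Klra8 (chr6:130115226-130129898), Klra9 (chr6:130178675-130193112) and Klra7 (chr6:130218605-130233322) lie within 0.190 Mb. Klrd1 is on the plus strand and the other 8 on the minus strand. Ncr1, an immunoglobulin-like receptor, is the member outside the complex, at chr7:4337724-4345164 on the plus strand.

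The miRNAs that KO mice lack are encoded on chromosome 11. Their mature sequences are shown from RefSeq (GRCm38.p6, plus strand), 5′ to 3′, with the seed, bases 2 to 8, in capitals, because the seed was searched for in the members' transcripts. They lie at chr11:78073010-78073032, chr11:78073047-78073066 and chr11:78073186-78073207, in the order printed.
miR-144-5p: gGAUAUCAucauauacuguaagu
miR-144-3p: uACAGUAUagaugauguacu
miR-451a: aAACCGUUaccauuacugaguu

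The 3 seeds differ from each other. The letters that pair with them are TGATATC for miR-144-5p, ATACTGT for miR-144-3p and AACGGTT for miR-451a, read on the transcript strand. None of the 10 members held any of the 3 in an annotated 3′-UTR. Of 11550 tested genes with an annotated 3′-UTR, 6.19% held the first, 14.2% the second and 2.04% the third. The absence says only that these letters are not in the annotated windows, which are short for the Ly49 members, 201 to 315 bases at the longest.

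The libraries held between 8143971 and 8876570 estimated counts, and 3 counts, taken as the floor of detection, corresponded to 0.338 to 0.368 CPM, counts scaled by library total and TMM factor. Mir144 and Mir451a were listed at 0 in all 6 libraries, WT included, and therefore gave no check of the genotype. WT1, KO1 and KO2 had summed B cell marker levels of 2769, 2909 and 3146 CPM, against 1364 to 1655 CPM in the other 3, and their summed neutrophil marker levels were 1034 to 1249 CPM against 331 to 440 CPM. Summed monocyte or macrophage markers were 1470, 1864 and 2176 CPM in WT1, KO1 and KO2 and 758 to 891 CPM in the others. Summed erythroid markers, the list with the highest median log2 fold change at 1.11, reached 2718 CPM in KO2 against 250 to 868 CPM in the other 5 libraries. All 8 B cell markers and all 7 neutrophil markers were above 0 in every library, although the neutrophil marker Ly6g, with 1 count in WT3, was under the floor there. Of 8 monocyte or macrophage markers and of 8 markers of CD8a+ dendritic cells, 4 each had an unadjusted p under 0.05 with KO higher, against 4.14% of all tested genes, and none was called. Summed T cell markers ran the other way, at 1761 CPM in KO2 and 2198 CPM in KO1 against 2553 to 3218 CPM in the other 4, and 10 NK cell markers that are not members summed to 730, 575 and 570 CPM in WT and 457, 578 and 636 CPM in KO. The sum of the NK cell markers was thus highest in WT1 and lowest in KO1. By gene, the median log2 fold change was -0.049, with 7 of the 10 below 0 and 3 above. Nkg7 alone gave 154 to 278 CPM, lowest in KO2 and highest in WT3, so the order of the sum did not hold for each gene. Klri2 measured 8.88, 2.73 and 3.59 CPM in WT and 11.2, 11.5 and 4.46 CPM in KO. Eomes is also on the list of memory CD8 T cell markers. All 9 T cell markers were above 0 in every library, and Cd8b1, which encodes the CD8 beta chain, stood at 450 CPM per kb of exon in WT and 322 in KO. Because the libraries are bulk samples, fewer cells of a type and less RNA per cell cannot be told apart.

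None of the 10 receptor genes changed at an adjusted p under 0.05 (edgeR, quasi-likelihood test, Benjamini-Hochberg adjusted over all 13024 genes). Across all genes 4 were called, which is 0.0307%. One member, Klra8, had an unadjusted p under 0.05, a threshold that 814 genes, or 6.25%, passed. No member had KO values wholly above or wholly below its WT values, against 5.82% of all tested genes with KO higher and 5.65% with KO lower. Fitted log2 fold changes were above 0 for 6 members and below 0 for 4, with a median of 0.24 against 0.0030 over all genes tested.

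**Figure D1:**
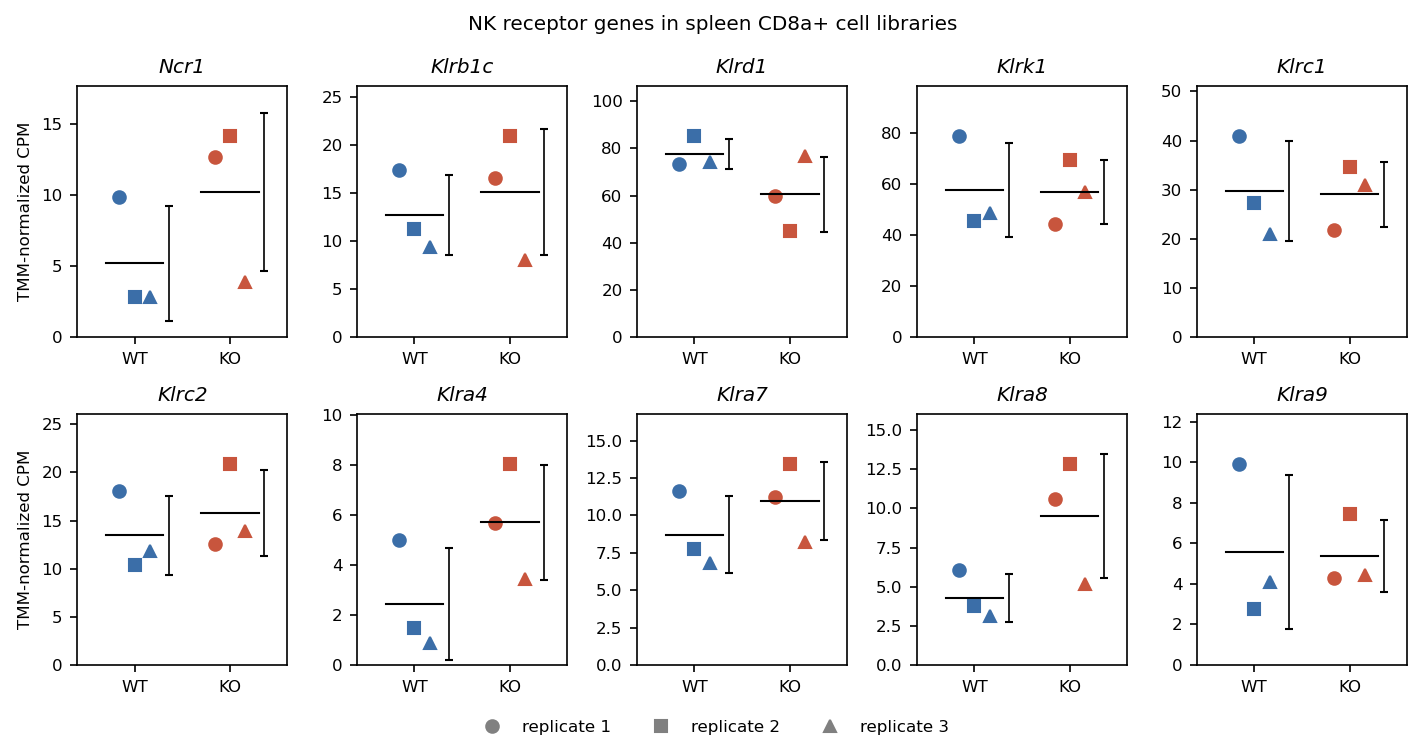
CPM of each receptor gene in the 3 WT and 3 KO libraries, 1 panel per gene with its own vertical axis from 0, where marker shapes give the replicate number, horizontal lines the group mean and bars 1 SD. WT and KO points overlap in all 10 panels, and for Ncr1, Klrb1c, Klra4, Klra7 and Klra8 KO3 is the lowest of the KO points and lies below WT1.

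Levels per length put the members in order, as CPM per kb of annotated exon averaged over the 6 libraries. Klrd1, the CD94 chain that pairs with NKG2A and NKG2C, was highest, at 60.7 in WT and 47.3 in KO, and its lowest library, 35.1, lay above the highest of Klrc1, 20.6. Klrc1 followed, at 14.98 in WT and 14.6 in KO, and Klrk1, which encodes the activating receptor NKG2D, at 8.02 and 7.92. The highest Klrk1 library, 11.0, overlapped the lowest Klrc1 library, 10.6. From Klrk1 downwards each gene overlapped its neighbour. Next came Klra7, at 6.90 in WT and 8.66 in KO, and the lowest were Klra4, at 1.97 and 4.59, and Klrc2, at 2.31 and 2.72. The order differed between the groups, since Klra7 and Klra8 (8.10) stood above Klrk1 in KO and Klra4 stood below Klrc2 in WT. It also depended on the length of all annotated exons, 7183 bases for Klrk1 and 5812 for Klrc2 against 1178 to 1279 for the Ly49 members. In CPM without length, Klrk1 in KO (56.9) lay above Klra7 (11.0) and Klra8 (9.54). Klrc2 (13.5 CPM in WT and 15.8 in KO) lay above the Ly49 members in both groups.

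**Figure D2:**
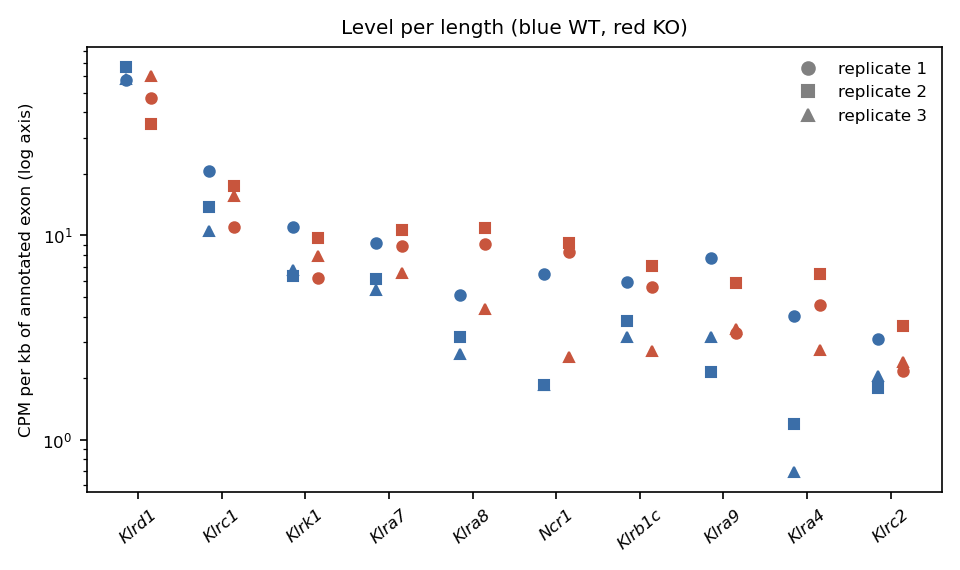
CPM per kb of annotated exon, on a log axis, for the 10 receptor genes in order of their mean over 6 libraries, with WT in blue, KO in red and marker shapes for replicate numbers. Klrd1 stands clear of the rest, and from Klrk1 rightwards neighbouring genes overlap.

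Ncr1 encodes NKp46, an activating receptor that in mice is largely restricted to NK cells and other innate lymphoid cells. It measured 9.91, 2.85 and 2.85 CPM in WT1, WT2 and WT3 and 12.7, 14.2 and 3.89 CPM in KO1, KO2 and KO3. The high libraries were WT1, KO1 and KO2, the 3 with the most B cell and neutrophil marker RNA, and the groups overlapped. The means were 5.20 ± 4.08 CPM in WT and 10.3 ± 5.56 CPM in KO (SD, n = 3), a log2 fold change of 0.97 with a standard error of 0.60 and a 95% interval from -0.42 to 2.36. The difference did not pass the test (edgeR, adjusted p = 0.818). With the B cell marker level of each library added to the model, a fit chosen after the data were seen, the log2 fold change was 0.52 ± 0.23 (standard error) (edgeR, adjusted p = 0.66). Leaving out 1 library gave 0.66 without WT3 to 1.84 ± 0.56 (standard error) without WT1, the latter with an unadjusted p of 0.0131 and an adjusted p of 0.499 (edgeR).

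Klrb1c encodes NK1.1, the surface antigen that marks NK cells in C57BL/6 mice. Its levels were 17.4, 11.3 and 9.41 CPM in WT and 16.5, 20.9 and 8.0 CPM in KO. The highest and the lowest library were both KO, and WT1, KO1 and KO2 were again the upper 3. The log2 fold change was 0.25 ± 0.36 (standard error) (edgeR, adjusted p = 0.906), and it turned to -0.068 when the B cell marker level was in the model.

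Klrd1 ran in the opposite direction. It measured 73.6, 85.2 and 74.4 CPM in WT and 59.96, 45.0 and 76.9 CPM in KO. KO1 and KO2 were below all WT libraries and KO3 above 2 of them, and the 2 low libraries were also those with the lowest summed T cell markers. The mean was 77.7 ± 6.48 CPM in WT and 60.6 ± 16.0 CPM in KO (SD, n = 3), a log2 fold change of -0.36 with a standard error of 0.18 and a 95% interval from -0.77 to 0.052. The test was not passed (edgeR, adjusted p = 0.816), and with the B cell marker level in the model the log2 fold change was -0.29. Leaving out 1 library gave -0.18 without KO2 and -0.59 without KO3, the latter with an unadjusted p of 0.00312 and an adjusted p of 0.14 (edgeR). The part of the T cell RNA in this difference was not tested.

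Klrk1 levels were 78.7, 45.6 and 48.7 CPM in WT and 44.4, 69.5 and 56.9 CPM in KO. The groups overlapped, with WT1 highest and KO1 lowest. The group means were 57.6 ± 18.3 and 56.9 ± 12.6 CPM (SD, n = 3), and the log2 fold change of -0.019 had a 95% interval from -0.56 to 0.52.

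The partners of Klrd1 overlapped in the same way. Klrc1 measured 40.9, 27.3 and 20.9 CPM in WT and 21.7, 34.6 and 30.9 CPM in KO, and WT1 was highest and WT3 lowest. Its log2 fold change was -0.035 ± 0.26 (standard error) and a 95% interval from -0.63 to 0.56. Klrc2 measured 18.1, 10.4 and 11.9 CPM in WT and 12.6, 20.9 and 13.9 CPM in KO. Its highest library was KO2 and its log2 fold change 0.23 with a standard error of 0.27. For both genes neither direction was distinguishable from 0 (edgeR, adjusted p = 0.985 for Klrc1 and 0.89 for Klrc2). The activating Klrc2 made up 27.5 to 36.2% of the summed Klrc1 and Klrc2 counts in WT and 31.1 to 37.7% in KO, so the balance within this pair overlapped as well.

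The Ly49 members were low in all libraries, and the widest fitted differences among the 10 genes were found here. Klra8 encodes Ly49H, an activating receptor known for its recognition of a mouse cytomegalovirus protein. It measured 6.04, 3.76 and 3.10 CPM in WT (53, 33 and 25 counts) and 10.6, 12.8 and 5.14 CPM in KO (92, 107 and 45 counts). KO1 and KO2 lay above all WT libraries, and KO3 lay between WT1 and WT2. The means were 4.30 ± 1.54 CPM in WT and 9.54 ± 3.96 CPM in KO (SD, n = 3), a log2 fold change of 1.14 with a standard error of 0.39 and a 95% interval from 0.24 to 2.04. The unadjusted p was 0.019 and the adjusted p 0.728 (edgeR). With the B cell marker level in the model the log2 fold change was 0.84 ± 0.22 (standard error) (edgeR, adjusted p = 0.274).

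Klra4 encodes Ly49D, the other activating Ly49 receptor among the 10. It measured 5.01, 1.48 and 0.867 CPM in WT (44, 13 and 7 counts) and 5.66, 8.04 and 3.43 CPM in KO. KO1 and KO2 were above all WT libraries and KO3 was below WT1. The log2 fold change of 1.20 had a standard error of 0.61 and a 95% interval from -0.19 to 2.60 (edgeR, adjusted p = 0.816). Leaving out 1 library gave 0.79 without WT3 to 2.26 without WT1 (edgeR, adjusted p = 0.991 and 0.499), and with the B cell marker level in the model 0.96 (edgeR, adjusted p = 0.606).

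Klra7 and Klra9 encode the inhibitory Ly49G and Ly49I. Klra7 measured 11.6, 7.75 and 6.81 CPM in WT and 11.2, 13.4 and 8.23 CPM in KO, with WT1 and KO1 at nearly the same level. Its log2 fold change was 0.33 ± 0.27 (standard error) (edgeR, adjusted p = 0.869), and it ran from 0.15 without KO2 to 0.59 without WT1. Klra9 measured 9.91, 2.73 and 4.09 CPM in WT and 4.27, 7.44 and 4.46 CPM in KO, and both its highest and its lowest library were WT. Its log2 fold change was -0.052 ± 0.48 (standard error) (edgeR, adjusted p = 0.987).

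**Figure D3:**
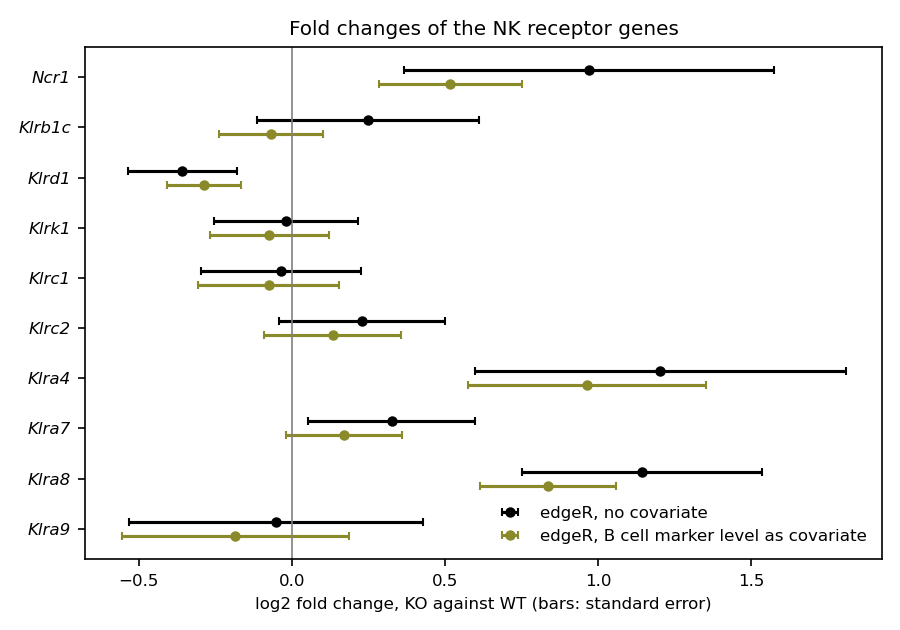
Fitted log2 fold change of KO against WT for each receptor gene, with bars of 1 standard error, from edgeR without a covariate in black and with the B cell marker level of each library as a covariate in olive. Klra4, Klra8 and Ncr1 lie farthest to the right in both fits, at 1.20, 1.14 and 0.97 without the covariate, and Klrd1 lies farthest to the left in both.

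Summed over the 4 Ly49 members, the level was 32.6, 15.7 and 14.9 CPM in WT and 31.8, 41.8 and 21.3 CPM in KO. WT1 stood with KO1, and the sums overlapped, at 21.0 ± 9.98 against 31.6 ± 10.3 CPM (SD, n = 3) and a log2 ratio of 0.59. Over all 14 Klra genes in the files, which takes in reads that could have been assigned to another copy, the sums were 55.3 ± 19.3 and 71.1 ± 14.2 CPM. Beyond the 4 members and the 9 further Ly49 genes listed below, the 14 include a gene that added no CPM to these sums. The 2 activating genes summed to 11.0, 5.24 and 3.96 CPM in WT and 16.3, 20.9 and 8.57 CPM in KO, and the 2 inhibitory genes to 21.5, 10.5 and 10.9 CPM and 15.5, 20.9 and 12.7 CPM.

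The balance between both classes within each library was also taken, a measure chosen after the values were seen and given without a test. Klra4 and Klra8 together made up 33.9% of the counts of the 4 Ly49 members in WT1 (97 of 286 counts, 95% Wilson interval 28.7 to 39.6%), 33.3% in WT2 (46 of 138, 26.0 to 41.6%) and 26.7% in WT3 (32 of 120, 19.6 to 35.2%). In KO the share was 51.3% in KO1 (141 of 275, 45.4 to 57.1%), 50.0% in KO2 (174 of 348, 44.8 to 55.2%) and 40.3% in KO3 (75 of 186, 33.5 to 47.5%). With these 4 genes as the denominator all 3 KO shares lay above all 3 WT shares, with means of 47.2 ± 5.99% and 31.3 ± 4.03% (SD, n = 3), although the interval of KO3 overlapped those of all WT libraries. With all 14 Klra genes as the denominator the groups overlapped. Klra4 and Klra8 then made up 14.3, 12.7 and 8.38% of the summed CPM in WT1, WT2 and WT3 and 24.8, 24.0 and 14.2% in KO1, KO2 and KO3, so KO3 fell just below WT1, with means of 11.8 ± 3.05% and 21.0 ± 5.89% (SD, n = 3). The separation therefore depended on which Ly49 genes were counted. The 14 include the pseudogene Klra13-ps, which was highest in KO3, at 19.2 of the summed 60.3 CPM. The share without this pseudogene was not taken. These intervals cover counting error only and take the division of reads among the Ly49 copies as given. A share within so few counts says nothing of which class moved, and with 3 libraries against 3 an exact permutation test could not go below p = 0.10.

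**Figure D4:**
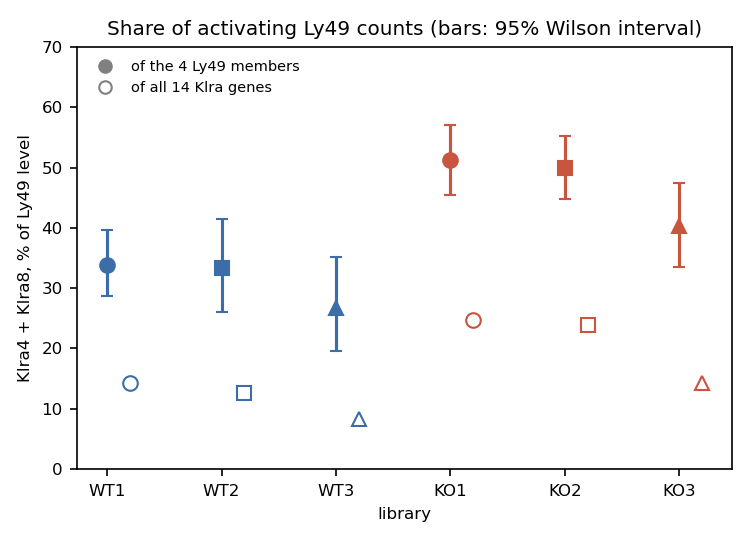
Activating Klra4 and Klra8 as a percentage of the counts of Klra4, Klra7, Klra8 and Klra9 (filled, with 95% Wilson intervals) and of the summed CPM of all 14 Klra genes (open, no interval) in each library. The filled WT shares run from 26.7 to 33.9% and the filled KO shares from 40.3 to 51.3%, while the open KO3 point, at 14.2%, lies just below the open WT1 point, at 14.3%.

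Set out by library, the members fell into different orders. Ncr1, Klrb1c, Klra4 and Klra7 had their 3 highest values in WT1, KO1 and KO2, the 3 libraries with the highest B cell markers, and so did Klra8. Klrk1, Klrc1, Klrc2 and Klra9 had their 2 highest values in WT1 and KO2, with KO1 lower. Klrd1 was lowest in KO2 and KO1, as the T cell markers were. KO2, the library with the most erythroid marker RNA, was the highest of all for Ncr1, Klrb1c, Klrc2, Klra4, Klra7 and Klra8. The part of other cells' RNA in these orders was not tested beyond the fit with the B cell marker level. The 5 other genes whose log2 levels followed the mean of the 10 members most closely over the 6 libraries, among 10591 genes of at least 5 CPM, were Gm6377, Samhd1, Tdrd7, Fgd4 and Tspan2, with Pearson r of 0.995, 0.992, 0.989, 0.989 and 0.989. With 6 points that share library composition, and the best of so many genes picked, these values are a description of likeness.

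**Figure D5:**
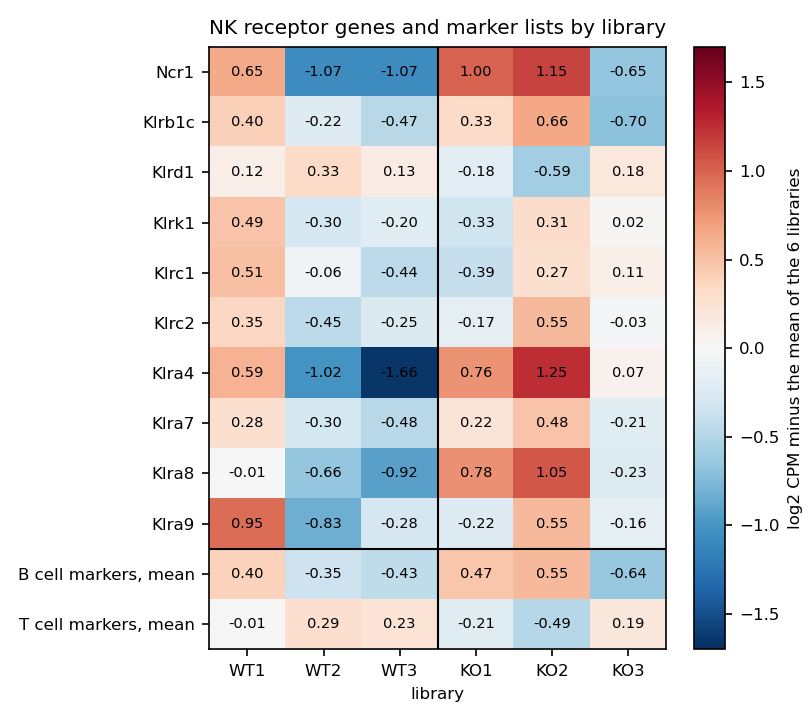
Log2 CPM of each receptor gene in each library minus the gene's mean over the 6 libraries, with the mean of the B cell markers and of the T cell markers in the lowest rows, red above and blue below the mean. Ncr1 reads 0.65, 0.998 and 1.15 in WT1, KO1 and KO2 and -0.65 or less in the others, while Klrd1 follows the T cell row, at -0.18 and -0.59 in KO1 and KO2.

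The rest of the receptor system was read from lists of related genes. Of 9 further Ly49 genes 7 were tested, and none had an unadjusted p under 0.05. The median log2 fold change was 0.17. The highest per length was Klra13-ps, a pseudogene that shares 23.6% of Klra7's words, at 12.6 CPM per kb in WT and 14.2 in KO. Of 12 further lectin-like receptors of the complex 7 were tested and none passed either threshold, with a median of 0.067. Cd69, an early activation antigen, led them at 39.7 CPM per kb in WT and 41.6 in KO.

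The adaptors carry the signal of the activating members. Of 7 adaptors 6 were tested, none had an unadjusted p under 0.05, and the median log2 fold change was 0.066. Tyrobp, which encodes DAP12, the partner of Ly49D and Ly49H, measured 96.2, 58.1 and 61.7 CPM in WT and 99.7, 116 and 51.0 CPM in KO. WT1, KO1 and KO2 were again high, and the log2 fold change was 0.31 ± 0.30 (standard error) (edgeR, adjusted p = 0.874). Tyrobp is also made by myeloid cells, whose markers were high in the same libraries. The part of myeloid RNA in the Tyrobp values was not tested. None of the 17 signaling genes had an unadjusted p under 0.05, and Lck, the Src-family kinase of T and NK cells, was the highest per length.

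Ligand genes were measured in the same libraries. Of 16 listed ligand genes 12 were in the files and 7 tested, with none under an unadjusted p of 0.05 and a median log2 fold change of -0.11. B2m, the invariant chain of the MHC class I molecules that Ly49 receptors bind, was highest, at 2194 CPM per kb in WT and 2013 in KO. H60b, a ligand of NKG2D that did not pass the filter and was picked out after its values were seen, had 62 counts in KO3 against 1 to 7 counts in the other 5 libraries.

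Among 18 other NK cell surface receptors 1 had an unadjusted p under 0.05, a share near the 6.25% of all tested genes. Slamf6, which encodes a self-binding receptor of NK and T cells, measured 149, 149 and 133 CPM in WT and 119, 113 and 131 CPM in KO. All KO libraries were below all WT libraries, as for 5.65% of all tested genes, with a log2 fold change of -0.25 and a standard error of 0.091, and it was not called (edgeR, adjusted p = 0.769). Il2rb, the shared beta chain of the IL-2 and IL-15 receptors on which NK cells depend, was highest per length, at 77.0 CPM per kb in WT and 78.5 in KO.

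None of 13 transcription factors of the NK lineage had an unadjusted p under 0.05, and their median log2 fold change was -0.0082. Id2, an inhibitor of E proteins needed by innate lymphoid cells, measured 123, 125 and 108 CPM in WT and 126, 136 and 152 CPM in KO. KO values lay above WT values without overlap, as for 5.82% of all tested genes, with a log2 fold change of 0.22 (edgeR, adjusted p = 0.804). Ets1, the highest per length, lay below WT in all KO libraries, at 1078 to 1221 CPM against 1257 to 1310 CPM, as for 5.65% of all tested genes, with a log2 fold change of -0.15 (edgeR, adjusted p = 0.819).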

How the data were processed

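The deposited values are estimated counts (expected counts) of reads per Ensembl gene, made by the authors from their reads with 1 file per mouse and, from the values, not normalized. RNA was taken from spleen cells with a column kit and made into libraries with a SMARTER mRNA kit. The submitters' processing notes name GRCm38, and the aligner, the counter and the use of strand are not given in the sources used here. Counts were rounded and tested in edgeR 4.0.16 (R 4.3.3) by the quasi-likelihood test with TMM normalization and Benjamini-Hochberg adjustment at 0.05, after edgeR's expression filter (counts of 10, totals of 15). Fold changes compare KO with WT. CPM used TMM-scaled library totals. DESeq2 1.42.0, limma voom 3.58.1, upper-quartile normalization, no filter, a replicate block, leaving out each library and a B cell marker covariate were alternatives. Gene models and transcripts were from GENCODE M21. Of 44678 identifiers 44121 had a symbol, and of 174 listed symbols 169 were found.

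The genes named are the 10 members and, from each list of related genes that is not a cell type marker list, up to 5 with the smallest p among those with an unadjusted p under 0.05 or groups that did not overlap, plus the gene with the highest level per length. Cd8b1, named to check the CD8 label, and H60b fall outside this rule and were chosen after their values were seen. The 5 genes most like the members were taken by Pearson r. The members and lists were chosen with earlier results of these data known. In simulated data with 200 changed genes drawn from all 13024, the test recovered 57.5% at a log2 fold change of 1 and 88.5% at 2. False calls numbered 8 and 14. Counts were drawn gene by gene, without the differences in cell composition between the real libraries, and recovery of the members themselves was not measured. That the 3 libraries of a group came from separate mice is read from their labels alone, and p-values measure the spread between these libraries.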

Additional observations from a re-analysis of the deposited data

How the results depend on the processing

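None of the 10 receptor genes was called under any of 12 alternatives, the unadjusted p being under 0.05 for 0 to 4 of them. The number of genes called was 4 in the reported fit and 58 with DESeq2, 12 with no filter, 9 with the replicate block and 30 with the B cell marker covariate. Leaving out 1 library at a time gave 2 to 94 genes, the highest without KO3 and the lowest without WT1 or WT3, and the cause was not tested. Klra8, Klra4, Klra7 and Ncr1 kept a fold change above 0 and Klrd1 one below 0 in all 12 alternatives, and for Klra8 it ran from 0.84 to 1.47 with adjusted p from 0.109 to 1.0. Without WT2, WT3, KO1 or KO2 the unadjusted p of Klra8 was 0.0589 to 0.0712, without WT1 it was 0.0104 and without KO3 0.00175.

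Small fold changes turned sign. Klra9 was 0.10 with limma voom and 0.083 with the replicate block, Klrk1 was 0.0041 with the block, and Klrb1c was -0.068 with the covariate. Leaving out 1 library gave -0.38 to 0.66 for Klra9 (above 0 without WT1, KO1 or KO3), -0.19 to 0.27 for Klrk1 and -0.25 to 0.26 for Klrc1 (both above 0 without WT1 or KO1), -0.053 to 0.54 for Klrb1c and -0.021 to 0.50 for Klrc2 (both below 0 without KO2). The summed Ly49 log2 ratio was 0.33 to 1.05 when 1 library was left out, 0.61 on total counts and 0.36 over all Klra genes. Same-numbered libraries did not deviate together (correlations -0.010, -0.20 and 0.11), so the numbers were not taken as pairs. Ncr1, Klra4 and Klra8 rested on 7 to 118 counts per library and had standard errors of 0.60, 0.61 and 0.39. Klra7, with 54.7 to 112 counts, had one of 0.27. The part of low counts in these errors was not tested.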
